A study of Mus musculus with 4 samples.

Results

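The HoxC cluster of the mouse holds the listed genes Hoxc4, Hoxc5, Hoxc6, Hoxc8, Hoxc9, Hoxc10, Hoxc11, Hoxc12 and Hoxc13 on chromosome 15. They were found by gene name among the probes of 4 Agilent whole mouse genome arrays. The arrays carried 9 probes for 8 of these 9 genes, out of 41174 probes with 27845 gene names, and no probe was named Hoxc11. Each gene had 1 probe except Hoxc10, which had 2. The outermost probes, those of Hoxc4 and Hoxc13, spanned 107790 bases on the mm8 build given in the file headers.

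Every array compared RNA of Cdx2+/-Cdx4-/- mutant embryos, which carry 1 functional Cdx2 allele and no functional Cdx4 allele, with RNA of wildtype embryos. The tissue was the posterior end of embryos at 5 to 6 somites, cut at the most recent somite boundary, and each genotype was a pool of 10 embryos. Both RNAs of an array were labelled with Cy3 and Cy5 and hybridised together, and the 4 arrays are labelled as replicate 1, its dye swap, replicate 2 and its dye swap. Nothing says whether the 2 replicates came from separate pools, so the tests weigh each ratio against a spread that may be purely technical.

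Hox genes encode homeodomain transcription factors that give segments along the body axis their identity. In each cluster the genes are switched on in sequence, those of low number first and further forward, those of high number later and nearer the tail. Cdx1, Cdx2 and Cdx4 encode homeodomain factors related to caudal of the fly, which act upstream of many Hox genes and are needed for growth of the posterior body.

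The direction of the ratios is not settled by the labels. Over 41108 probes, the ratio of Cy5 over Cy3 correlated at -0.36 between the 2 arrays labelled with the mutant in Cy5, and at -0.38 between the 2 dye swaps. Arrays of equal orientation are meant to run the same way. Arrays with the same replicate number correlated at 0.75 and 0.79, although their dyes are labelled as swapped. All arrays were therefore turned so that the Cdx4 probe was lower in the mutant, which goes with the labels of replicate 1 and of the replicate 2 dye swap and against those of the other 2 arrays. Whether the Cdx4 probe lies in the deleted part of the gene was not known here, and the Cdx4 ratio is no finding after this step. Aligned ratios are on the log2 scale and set the mutant over wildtype. If the labels of the replicate 1 dye swap and of replicate 2 are the right ones, each sign below is turned, and Hoxc6, given below as 1.43-fold lower, is higher by that factor.

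Among the HoxC genes, only Hoxc4 had an entry in the RefSeq promoter windows used here, which run from 250 bases before to 50 bases after a listed start. It is shown because it is the single member for which a window was given. The window lies on the plus strand at chr15:103034145-103034444 of GRCm38.p6. That is inside the span of the gene, 103018097 to 103036856, so the sequence at its outermost start was not read.
Hoxc4: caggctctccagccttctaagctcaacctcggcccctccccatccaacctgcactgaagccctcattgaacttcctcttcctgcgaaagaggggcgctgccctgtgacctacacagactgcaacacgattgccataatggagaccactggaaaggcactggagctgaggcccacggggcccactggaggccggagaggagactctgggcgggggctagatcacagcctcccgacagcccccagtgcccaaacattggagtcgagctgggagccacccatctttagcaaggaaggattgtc
The letters of Cdx sites, TTTATG and TTTATA (the second also reads as a TATA box), and of a joint Hox and Pbx site, TGATNNAT, were searched on both strands. None was in this window, so it has no capitals. Of 32851 promoter windows of this length, 11.9% held TTTATG, 13.6% TTTATA and 8.85% TGATNNAT.

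The cluster also holds a microRNA gene, Mir196a-2, between Hoxc10 and Hoxc9. Its mature product is shown because it is known in the mouse to pair with the mRNA of Hoxb8, a paralogue of Hoxc8, and lies at chr15:102973365-102973386 of GRCm38.p6 on the plus strand. The capitals mark the seed, bases 2 to 8 from the 5′ end.
mmu-miR-196a-5p: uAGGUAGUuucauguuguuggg
The microRNA was not measured here. Hoxc8 and Hoxb8 were, and their ratios are given below with those of their paralogues.

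A probe entered the test if the scanner called the same genotype, mutant or wildtype, well above background on every one of the 4 arrays. Hoxc4, Hoxc6, Hoxc8, Hoxc9 and 1 probe of Hoxc10 passed, 5 of the 9 probes. The plot of signals shows the other 4 near their local background. Signal differs between probes for reasons of probe design, so levels of different HoxC genes were not ranked.

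**Figure D1:**
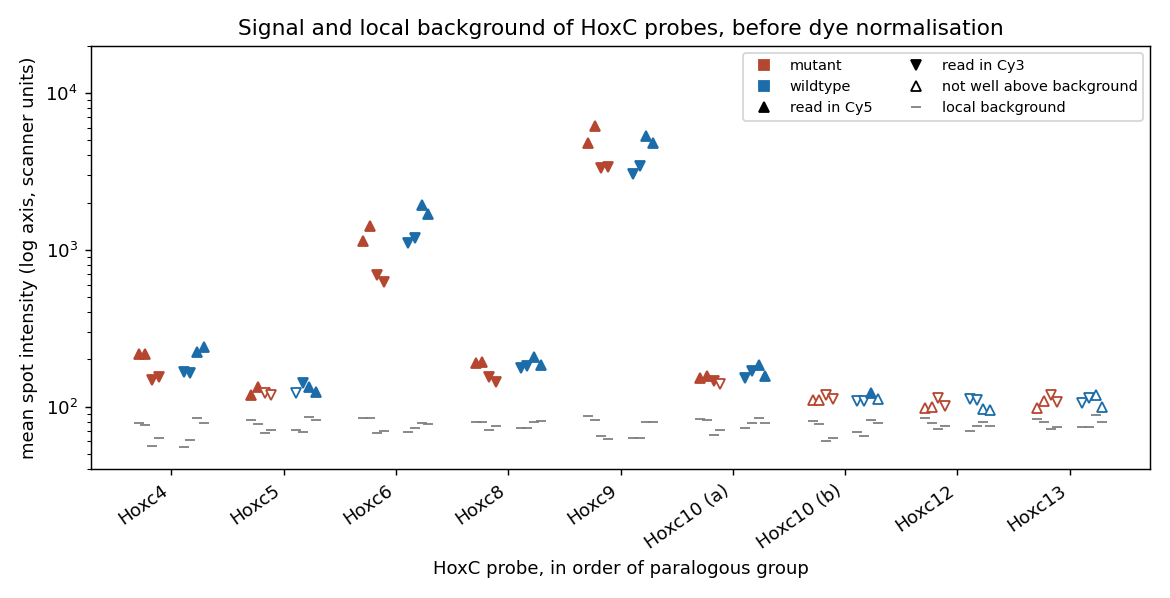
Mean spot intensity on a log axis, in scanner units and before dye normalisation, for the 9 HoxC probes in order of paralogous group, with the 4 mutant values (red) left of the 4 wildtype values (blue). Upward triangles were read in Cy5 and downward ones in Cy3, open symbols were not well above background and grey dashes are the local background. Hoxc9 and Hoxc6 stand clear of background in every channel, while Hoxc12 and Hoxc13 have open symbols only.

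The test averaged the 2 arrays of each labelled replicate number, called here the labelled-number pairing. As aligned, both arrays of replicate 1 have the mutant in Cy5 and both of replicate 2 have it in Cy3. A difference between the 2 replicate means, given below as SD with n = 2, cannot be told apart from a dye difference. Leaving out 1 replicate likewise leaves the mutant in 1 dye. It used limma with Benjamini-Hochberg adjustment over all 21860 tested probes. Pairing arrays across the numbers so that each pair has the aligned mutant once in Cy5 and once in Cy3 is called the exchange pairing. Only genes with an adjusted p under 0.05 in both pairings are described as changed. Every probe that passed the labelled-number pairing also passed the exchange pairing, which uses the same arrays, so the second condition removed none and adds no support. In the labelled-number pairing 1 HoxC probe was lower, beside 733 of all tested probes or 3.35%, and 0 were higher, beside 507 or 2.32%. In the exchange pairing 1 HoxC probe was lower, where 18% of all probes were, and 1 was higher, where 19.4% were. At an unadjusted p under 0.05 in limma, 1 HoxC probe was lower and 0 higher in the labelled-number pairing. One call among 5 probes is too few to be read against these shares. The median log2 ratio of the 5 probes was -0.06, beside 0.01 over all tested probes.

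Hoxc6 was the HoxC gene that fell, and it did so on each array. Its product acts in patterning of the thoracic region. The probe lies at chr15:102839635-102839696 on mm8. Its aligned log2 ratios were -0.44 on replicate 1, -0.23 on its dye swap, -0.73 on replicate 2 and -0.68 on that dye swap. All 4 arrays had the lower value in the mutant, with the deeper ratios in replicate 2, where the aligned mutant was in Cy3. The replicate means were -0.33 and -0.70, a mean of -0.52 ± 0.26 (SD, n = 2). The fitted ratio was -0.52 ± 0.10 (SE), 1.43-fold lower, with a 95% interval of -0.74 to -0.30 and a limma adjusted p of 0.00517. In the exchange pairing the adjusted p was 1.21e-21. From the lowest ratio up, it ranked 199 of the 21860 tested probes.

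The Hoxc6 spots were bright. Before dye normalisation, the mutant signals were 1140 on replicate 1, 1424 on its dye swap, 692.9 on replicate 2 and 621.4 on that dye swap. The wildtype signals were 1110, 1184, 1938 and 1685 in the same order. In the raw values the mutant was thus above wildtype on both arrays of replicate 1, where the aligned mutant channel is Cy5, and below it on both arrays of replicate 2, where it is Cy3. The negative ratios of replicate 1 appear after dye normalisation. The scanner's own dye normalisation also gave them: the authors' deposited table of scanner ratios has aligned log2 values of -0.50, -0.44, -0.77 and -0.79. The scanner's own p-values for these ratios, each from a single array, were 0.0161, 0.0332, 0.000368 and 0.00026. With each array centred on its median instead, with no correction for signal strength, the ratios were -0.45, 1.10, -1.15 and -0.22, so that the replicate 1 dye swap turned. The adjusted p was then 0.942 at a mean of -0.18.

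The Hoxc6 call rests on how the probes and arrays were handled. It was lost in limma with the arrays left as labelled, at a ratio of -0.04 and an adjusted p of 1, and with all dim probes tested, at an adjusted p of 0.178. It was also lost without the first array of replicate 1, at -0.47 and an adjusted p of 0.155, and with the probe's own spread in place of the one limma shares over probes, at an adjusted p of 0.74. These settings called few probes of any gene: 33 of 21117 as labelled and 16 of 41174 with dim probes. Without that array 189 of 21857 were called, and with own spreads 0 of 21860. As labelled, each replicate mean sets 1 array turned by the alignment against 1 left unturned. Aligned ratios that are alike then cancel for any probe, so that loss was fixed beforehand.

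**Figure D2:**
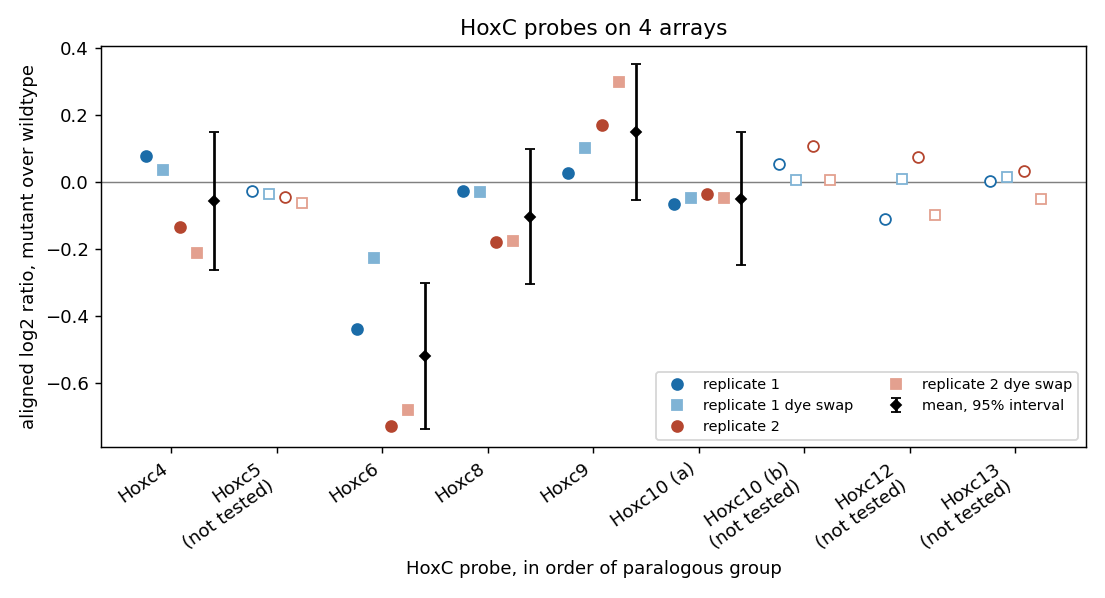
Aligned log2 ratio, mutant over wildtype, of each HoxC probe on each array, in order of paralogous group; circles are the first array of a replicate and squares its dye swap, with open symbols for untested probes. Black diamonds are the fitted means with 95% intervals. Only the interval of Hoxc6, -0.74 to -0.30, does not reach 0.

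Hoxc9, a gene active in the thoracic and more posterior trunk, had the highest ratio of the 5 tested probes. Its probe lies at chr15:102812338-102812397. The aligned log2 ratios were 0.03 on replicate 1, 0.10 on its dye swap, 0.17 on replicate 2 and 0.30 on that dye swap. All were above 0, but the mean of 0.15 ± 0.12 (SD, n = 2) did not pass the labelled-number pairing, with an adjusted p of 0.481 in limma. The 95% interval of the difference was -0.05 to 0.35. It passed the exchange pairing, with a limma adjusted p of 0.0142, the remaining pairing of the arrays, at 0.0016, and a limma fit of the 4 arrays with a dye term, at 0.00985. So did many probes: 8188 and 10989 of all 21860 tested in these pairings, and 9200 of 21801 with the dye term. With median centring the ratios were 0.11, 1.79, -0.30 and 0.83, so that replicate 2 turned, and the limma adjusted p was 0.815 at a mean of 0.61.

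The raw Hoxc9 signals were again ordered by dye. The mutant had 4793 and 6204 on the arrays of replicate 1, where it was read in Cy5, and 3325 and 3378 on those of replicate 2, read in Cy3. Wildtype had 3042 and 3420 on the arrays of replicate 1 in Cy3, and 5317 and 4837 on those of replicate 2 in Cy5. Each genotype was brighter where it was in Cy5. The normalised ratios of Hoxc9 were smaller than these raw differences between the dyes.

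Hoxc8, which patterns the lower thoracic region and is well known for its early enhancer, lay between these neighbours. Its probe lies at chr15:102820966-102821025. The aligned log2 ratios were -0.03 on replicate 1, -0.03 on its dye swap, -0.18 on replicate 2 and -0.18 on that dye swap. All 4 were below 0, by little in replicate 1. The mean was -0.10 ± 0.10 (SD, n = 2), with a 95% interval of -0.31 to 0.10 and a limma adjusted p of 0.672. In the exchange pairing the adjusted p was 0.102. It passed in the remaining pairing, with an adjusted p of 0.0188, and in the fit with a dye term, at 0.0407. These settings called many probes, 10989 of all 21860 tested and 9200 of 21801, so passing them sets Hoxc8 little apart.

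The Hoxc8 signals were dim, though the scanner called them well above background in every channel. Mutant signals were 188.8, 192.7, 154.1 and 143.1, and wildtype signals 176.7, 181.7, 206.1 and 183 on the same arrays, over local backgrounds of 71 to 81. With no offset in the background correction, the aligned log2 ratios were -0.04, -0.03, -0.27 and -0.24. In the authors' deposited table the aligned log2 ratios of Hoxc8 were -0.15, -0.39, -0.25 and -0.30.

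Hoxc4, the most anterior gene of the cluster, had ratios that changed sign between the replicates. Its probe lies at chr15:102864144-102864186. The aligned log2 ratios were 0.08 on replicate 1, 0.04 on its dye swap, -0.14 on replicate 2 and -0.21 on that dye swap. Cy5 was above Cy3 on all 4 arrays, whichever genotype it carried. The mean was -0.06 ± 0.16 (SD, n = 2), with a 95% interval of -0.26 to 0.15 and a limma adjusted p of 0.859. Mutant signals were 216.5 and 214.9 on the arrays of replicate 1 and 148.6 and 154.3 on those of replicate 2. Wildtype signals were 165.5 and 164.3 on the arrays of replicate 1 and 222.9 and 238 on those of replicate 2. The genotypes overlapped.

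Hoxc10, a gene of the lumbar and hindlimb level, was measured above background by 1 of its 2 probes, the one at chr15:102799460-102799519. The aligned log2 ratios were -0.07, -0.05, -0.04 and -0.05 in the order of the arrays. They were all below 0 and close together, with a mean of -0.05 ± 0.01 (SD, n = 2). The limma adjusted p was 0.878 and the 95% interval -0.25 to 0.15. In the authors' deposited table the same probe had aligned log2 ratios of -0.28, -0.71, -0.08 and -0.19, further from 0 and spread wider. Their fitted mean was -0.32, with a limma adjusted p of 0.234. Mutant signals ran between 138.7 and 156.5 and wildtype signals between 153.1 and 184.2. The mutant was well above background on 3 arrays and wildtype on 4. The second probe, at chr15:102795624-102798872, was not well above background in the mutant on any array and was so in wildtype on 1, and its ratios of 0.01 to 0.11 had the other sign.

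Hoxc5 lies next to Hoxc6 and Hoxc4. Its probe at chr15:102844572-102844631 was well above background in the mutant on 2 arrays and in wildtype on 3, and was not tested. Mutant signals were 118 to 133.5 and wildtype signals 122.4 to 142.2. The aligned log2 ratios were -0.03, -0.04, -0.05 and -0.06. With all dim probes fitted, its limma adjusted p was 0.954. The authors' deposited table has aligned log2 ratios of -0.47, -0.82, -0.72 and 0.02 for it. The scanner's own p-values for these ratios were 0.296, 0.0398, 0.25 and 0.981.

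Hoxc12 and Hoxc13, the posterior end of the cluster, were not well above background on any array in either genotype. Hoxc13 is best known for its part in hair and nails. The Hoxc12 probe at chr15:102766422-102766481 had mutant signals of 98.17 to 113.1 and wildtype signals of 94.8 to 112.4. The Hoxc13 probe at chr15:102756397-102756456 had mutant signals of 98.28 to 119.2 and wildtype signals of 98.69 to 117.6. Neither gene gave a level that could be compared between the genotypes.

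From the lowest mean ratio to the highest, the tested genes ran Hoxc6, Hoxc8, Hoxc4, Hoxc10 and Hoxc9, which is not their order along the chromosome. Hoxc8, Hoxc4 and Hoxc10 were dim, and their order depended on the processing. With the scanner's processed signals Hoxc10 came below Hoxc8 and Hoxc4, at -0.32, -0.27 and -0.11. Hoxc6 and Hoxc9 stayed at the ends, at -0.63 and 0.15. Hoxc6 was below Hoxc8 on all 4 arrays, by a log2 difference of -0.41 ± 0.16 (SD, n = 2). Hoxc8 and Hoxc4 differed by -0.05 ± 0.06, and Hoxc4 and Hoxc10 by -0.01 ± 0.17, both within the spread of the 2 replicates. Hoxc10 was below Hoxc9 on all 4 arrays, by -0.20 ± 0.11. The pairs were picked from the order of the values, so no test was run on them.

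The paralogues of the tested HoxC genes did not share 1 pattern. In group 6, Hoxa6 had a log2 ratio of -0.06 ± 0.09 (SE, limma adjusted p = 0.836). The 2 Hoxb6 probes had -0.16 ± 0.10 and -0.07 ± 0.10 (SE, limma adjusted p = 0.444 and 0.82). None of these passed the labelled-number pairing, while Hoxc6 did. Hoxa6, a dim probe, and the first Hoxb6 probe were also lower on all 4 arrays, and the second Hoxb6 probe on 2. The first Hoxb6 probe passed the exchange pairing (limma adjusted p = 0.00725), where 18% of all probes were lower. The differences between paralogues were not tested.

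In group 9, Hoxa9 fell, at -0.42 ± 0.09 (SE, limma adjusted p = 0.0119). Both Hoxd9 probes rose, at 0.59 ± 0.12 and 0.62 ± 0.09 (SE, limma adjusted p = 0.00682 and 0.000561). The 2 Hoxb9 probes did not pass the labelled-number pairing, with 0.25 ± 0.11 and -0.04 ± 0.09 (SE). Hoxc9, at 0.15, thus lay between a paralogue that fell and one that rose.

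In group 4, Hoxa4 had 0.05, Hoxb4 -0.19 and Hoxd4 -0.33, and none passed the labelled-number pairing, the last with a limma adjusted p of 0.0605. In group 8, Hoxb8 had 0.10 and Hoxd8 0.03, and neither passed. In group 10, Hoxa10 had -0.29 and Hoxd10 0.03, with limma adjusted p of 0.0858 and 0.925.

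**Figure D3:**
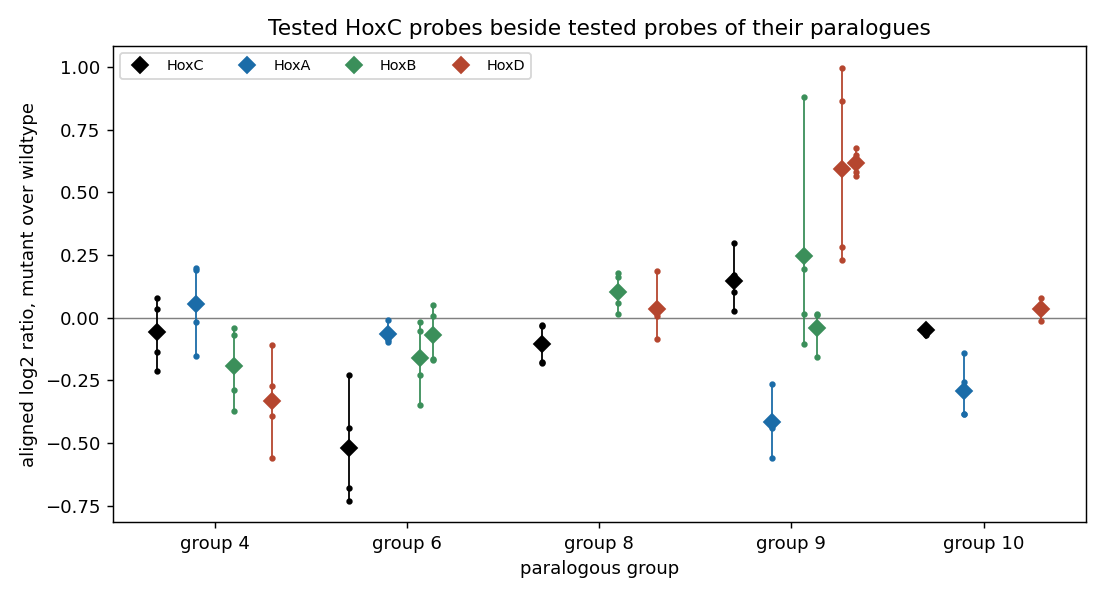
Aligned log2 ratio, mutant over wildtype, for tested HoxC probes (black) and tested HoxA, HoxB and HoxD probes of the same paralogous group; diamonds are means, dots the 4 arrays and lines their range. Hoxc6 at -0.52 lies below the group 6 probes of the other clusters, and group 9 holds both Hoxa9 at -0.42 and Hoxd9 at 0.59 and 0.62.

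Counted over whole clusters, 3 of 12 tested HoxA probes were lower and 2 higher in both pairings. Of 13 HoxB probes, 0 were lower and 2 higher, with 0 lower and 3 higher at an unadjusted p under 0.05 in limma. Of 8 HoxD probes, 1 was lower and 2 higher. The HoxC count was 1 lower and 0 higher of 5. Over all tested probes these shares were 3.35% lower and 2.32% higher. The median log2 ratios were -0.07 for HoxA, -0.01 for HoxB and -0.002 for HoxD. Among the cofactors that bind DNA together with Hox proteins (the Meis, Pbx and Pknox families), 0 of 12 tested probes passed the labelled-number pairing, with 1 lower and 1 higher at an unadjusted p under 0.05 in limma. In the exchange pairing 3 lower and 2 higher passed, where 18% and 19.4% of all probes did. The 2 Meis1 probes had opposite signs, at 0.32 and -0.13, and neither passed the labelled-number pairing.

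Genes around the cluster were read from the same mm8 coordinates. Within 500 kb of the outermost HoxC probes there were 52 probes of 33 other gene names, and 33 of the probes were tested. Sp1, which encodes a zinc finger transcription factor, was the 1 neighbour that fell. Its probe lay 496 kb beyond Hoxc13, with a log2 ratio of -0.48 ± 0.10 (SE, limma adjusted p = 0.00785). No other neighbour passed in both pairings. The share of neighbours called lower, 1 of 33, is close to that of all tested probes. The median over the neighbours was 0.01.

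**Figure D4:**
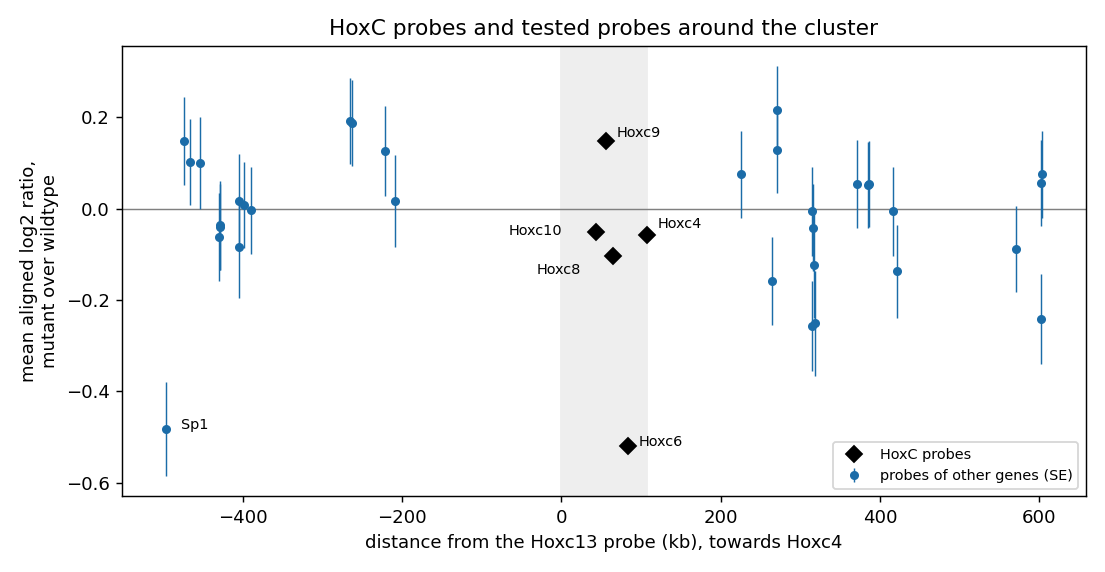
Mean aligned log2 ratio, mutant over wildtype, of tested HoxC probes (black) and tested probes of other genes (blue, with SE) by distance from the Hoxc13 probe in kb; the shaded band spans the HoxC probes. Hoxc6 at -0.52 and Sp1 at -0.48 are the probes that passed in both pairings.

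The 3 named genes whose values lay closest to those of Hoxc6 over the 4 arrays, by Euclidean distance of aligned log2 ratios, were Jak1 at 0.0799, Kcne3 at 0.0804 and Hkdc1 at 0.0811. They encode a kinase of cytokine receptors, a potassium channel subunit and a protein of the hexokinase family. Each lies on another chromosome. All 3 had the lower value in the mutant on 4 arrays, which their choice implies.

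The rest of the arrays gave the context of the HoxC values. In the mutant, Cdx2 was at -0.54 (limma adjusted p = 0.00198) and Cdx1 at 0.40 (limma adjusted p = 0.0315). Cdx4, used for the alignment, was at -2.59, -2.11, -2.82 and -2.42. All 11 probes for markers of posterior tissue were tested, and 1 of them, Wnt3a, rose, while 9 of the 11 were higher in the exchange pairing, where 19.4% of all probes were. Of 8 probes for structures in front of the cut, 2 were tested, while Otx2, Six3, Hesx1 and En1 were not well above background on the arrays the test required.

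Markers of other cell types moved between the genotypes alongside Hoxc6. The counts here and in the next paragraph are of tested probes in the labelled-number pairing, where 3.35% of all tested probes were lower and 2.32% higher. Of 15 visceral endoderm probes, 13 were lower and 0 higher, and their summed signal was 32100 to 42060 in the mutant and 69760 to 100500 in wildtype. Of 11 endothelial probes, 5 were lower, with sums of 7413 to 10760 in the mutant and 11060 to 15060 in wildtype. These 5 read Kdr, Etv2, Sox7 and Sox18, and the sums lean on the bright Kdr and Etv2 probes. No probe of Cdh5, Tie1, Tek or Pecam1 passed. Tie1 was at -0.04, Pecam1 at -0.05, Cdh5 at -0.05 and -0.23, and Tek at -0.05 and -0.32. For primitive erythroid markers, 4 of 5 probes were higher, with sums of 7775 to 11120 in the mutant and 3373 to 4673 in wildtype. These 4 all read embryonic globins, Hbb-bh1 (by overlapping probes), Hba-x and Hbb-y. The other tested marker, Alas2, was at 0.0035 (limma adjusted p = 0.994), and Gata1 and Klf1 were too dim to test. Their part in the Hoxc6 ratio was not tested.

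Neural tube markers were higher in 3 of 4 tested probes, out of 11 on the arrays, with sums of 3042 to 4333 in the mutant and 1857 to 3000 in wildtype. Somite markers were higher in 4 of 5 tested probes, out of 9 on the arrays, with sums of 3443 to 5127 in the mutant and 2291 to 3556 in wildtype. Lateral plate and limb markers passed in 0 of 9 probes, with 2 lower and 1 higher at an unadjusted p under 0.05 in limma, and their sums were 13550 to 18670 in the mutant and 15290 to 18900 in wildtype. Within each of the 4 arrays that sum was lower in the mutant, but it leans on its brightest probe, Pitx1, at -0.15 (limma adjusted p = 0.475). Of the 9 probes, 3 were lower on all 4 arrays and 3, those of Hand1 and Hand2, were higher on all 4. In pooled tissue, fewer cells of a type and less RNA per cell cannot be told apart.

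**Figure D5:**
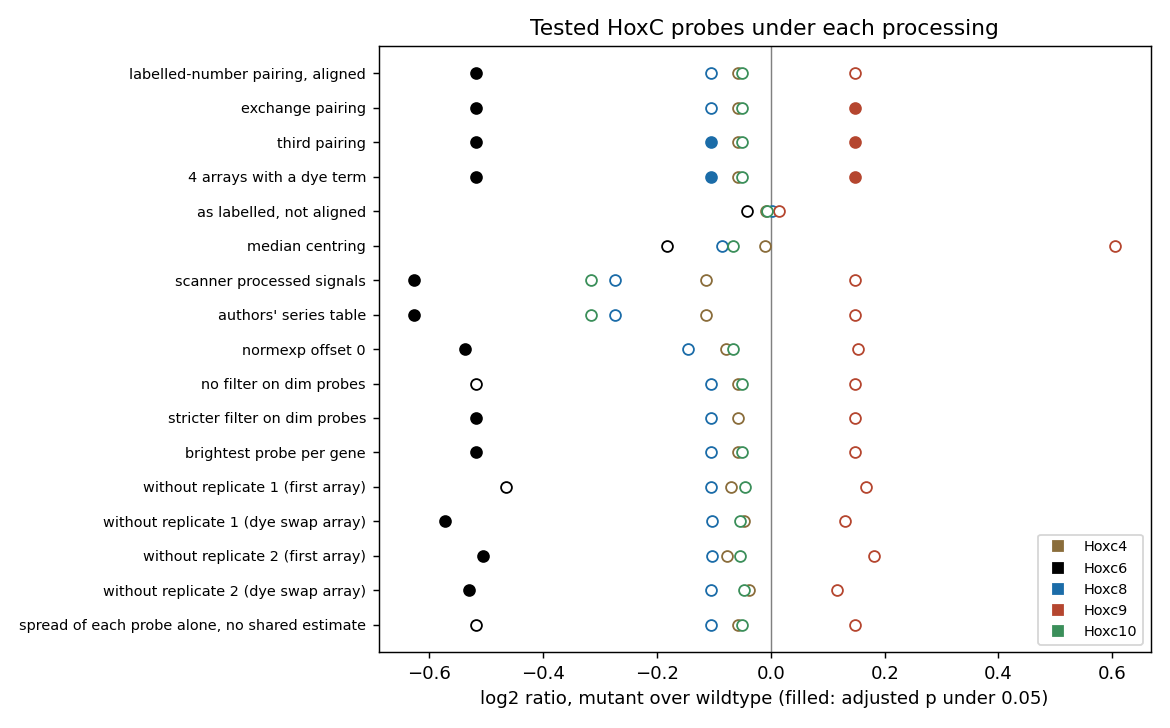
Log2 ratio, mutant over wildtype, of the 5 tested HoxC probes under each way of pairing, normalising, filtering and leaving out arrays; filled circles had an adjusted p under 0.05. In the settings plotted, Hoxc6 lies between -0.63 and -0.04, left of 0, and is open in 5 of them.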

How the data were processed

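Per the submitters' processing notes, the spots were read with Agilent Feature Extraction 9.5.3. Per the file headers, each spot has Cy3 and Cy5 intensities with local backgrounds. The deposited files add a log10 ratio (Cy5 over Cy3) and the p-value of that ratio. The deposited series table is log10 too. With a tolerance of 1e-05 it equalled the scanner ratio, with its sign turned on the dye swaps, for 100% of features, so by the labels it is mutant over wildtype. Each column had a median of 0. Probe coordinates are on mm8, per the file headers, and whether a probe lies in an exon or a UTR was not read. RefSeq sequences are on GRCm38.p6.

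In R 4.3.3 with limma 3.58.1, the deposited intensities went through normexp background correction (offset 50) and loess within arrays, control spots having weight 0. The log2 ratios used here were computed from the deposited intensities. Control and outlier spots were left out, saturated spots kept, and spots of a probe averaged. All 4 arrays lie on 1 slide, so no batch could be tested, and the number of arrays limits precision.

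Log2 ratios of the 2 arrays of each labelled replicate were averaged and fitted with lmFit and eBayes, threshold 0.05 after Benjamini-Hochberg adjustment. Each probe has 1 residual degree of freedom, and limma added 16.97 estimated from all probes. This estimate was unstable in simulated data, and where it came out infinite more unchanged probes were called than the threshold allows. In the exchange pairing it was infinite, so its adjusted p-values can be too small. Members, lists and tests were chosen with earlier results of these data known. All HoxC probes are named. Others are named as paralogues of tested members, as Cdx genes, as neighbours passing both pairings, or as the 3 genes closest to Hoxc6. Wnt3a, Meis1 and the untested anterior markers were singled out after their values were seen. Figures were drawn with matplotlib 3.10.9.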

Additional observations from a re-analysis of the deposited data

How the results depend on the processing

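The number of HoxC probes passing was 1 in the labelled-number pairing, 2 in the exchange pairing, and 3 each in the remaining pairing and in the fit with a dye term. It was 0 as labelled, with median centring, with no filter on dim probes, and with the spread of each probe alone, an alternative chosen after seeing the data. In these limma fits, and in the plain test of the last, 0, 0, 1 and 0 HoxC probes had an unadjusted p under 0.05. Leaving out 1 array gave 0 to 1, with 0 only without the first array of replicate 1, where 1 probe had an unadjusted p under 0.05. The median log2 ratio of -0.06 moved to -0.27 with the scanner's processed signals and with the series table, and ranged from -0.174 to -0.0301 without 1 replicate or array. Hoxc8 reversed to 0.0017 as labelled, and Hoxc4 to 0.0568 without replicate 2. Median centring shifted the median of all probes to 0.23, and Hoxc9 to 0.61. The cause was not tested. The dim probes of Hoxc10, Hoxc8 and Hoxc4 had -0.32, -0.27 and -0.11 with processed signals. Calls over all probes numbered 1240, against 8188 in the exchange pairing, 10989 in the remaining one, 9200 with a dye term, 33 as labelled, 0 with median centring, 1949 with processed signals and with the series table, 16 with no filter, 0 with each probe's own spread, and 189, 820, 718 and 977 without each array in turn. Each ratio already pairs the genotypes within an array, and no further block by replicate number could be fitted with 1 group of arrays.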
